A study of Mus musculus with 6 samples.

Results

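A set of 10 genes of the lipid droplet surface was followed in mouse liver RNA after partial hepatectomy (PHx), an operation that takes out some of the liver lobes. The set was taken by gene name from a deposited table of 34745 genes, and all 10 names were found: the CIDE genes Cidea, Cideb and Cidec, the perilipin genes Plin2, Plin3, Plin4 and Plin5, and the lipolysis genes Pnpla2, Abhd5 and G0s2. RNA sequencing gave 3 libraries of mice labelled Sox9HKO (HKO) and 3 of Sox9f/f mice (WT), the floxed strain without the knockout label. All were C57BL/6 animals of 12 weeks, sampled 48 h after PHx, and no library without surgery was used here. The labels give liver as tissue and hepatocyte as cell type. The driver of the Sox9 deletion, the sex of the mice and the number of mice behind a library are not given in the sources used here. The p-values therefore cover only the spread between these libraries, which may be technical.

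A hepatocyte stores triglyceride in droplets that a single phospholipid layer encloses, and the proteins on that layer set how fast the store is built and broken down. Perilipins coat the surface and limit access of lipases, CIDE proteins pass lipid from one droplet to another so that droplets grow, and adipose triglyceride lipase, the product of Pnpla2, removes the first fatty acid from triglyceride. In rodents droplets fill hepatocytes transiently in the days after PHx, and several of these genes are known targets of the nuclear receptor PPAR-alpha in liver.

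The libraries held 16659778 to 21168233 counts. Levels are TMM-scaled CPM, that is counts set to a common library total, and calls rest on an adjusted p under 0.05 from edgeR's quasi-likelihood test over 12556 genes (Benjamini-Hochberg adjustment). Sox9 itself had a mean of 5.14 ± 1.06 CPM over the HKO libraries and 10.6 ± 3.41 CPM over the WT libraries (SD, n = 3; log2 fold change -1.05, SE 0.27, edgeR adjusted p = 0.0284), and leaving out HKO 2, HKO 3, WT 2 or WT 3 ended this call (edgeR adjusted p from 0.0503 to 0.0975). HKO 2 stood apart in 2 ways: mitochondrial genes took 25.9% of its counts, against 12.1% to 16.3% elsewhere, and its summed endothelial and stellate markers were the highest of the 6 libraries. In a bulk sample, fewer cells of a type and less RNA per cell cannot be told apart.

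Most coat and lipolysis genes were higher in HKO than in WT. Of the 10 genes 6 rose (Cidec, Plin4, Plin5, Pnpla2, G0s2 and Plin3), none fell, 3 did not pass the test (Plin2, Cideb and Abhd5) and Cidea was too low to be tested. Among all genes tested, 12.1% were called higher and 11.2% lower, 23.2% in either direction. A rise of at least 2-fold was called for 4 members, Cidec, Plin4, Plin5 and Pnpla2, and for 4.21% of all genes. The median log2 fold change of the 9 tested members was 0.64, against 0.02 over all genes. The members were chosen with earlier results of these data known. In all 9 the lowest HKO library lay above the highest WT library, an arrangement seen in 22.6% of all genes. Each of the 9 had at least 12 counts in every library, so none was tested by virtue of the HKO group alone. The two-sided exact permutation p of each was 0.1, the smallest that 3 libraries against 3 can give.

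**Figure D1:**
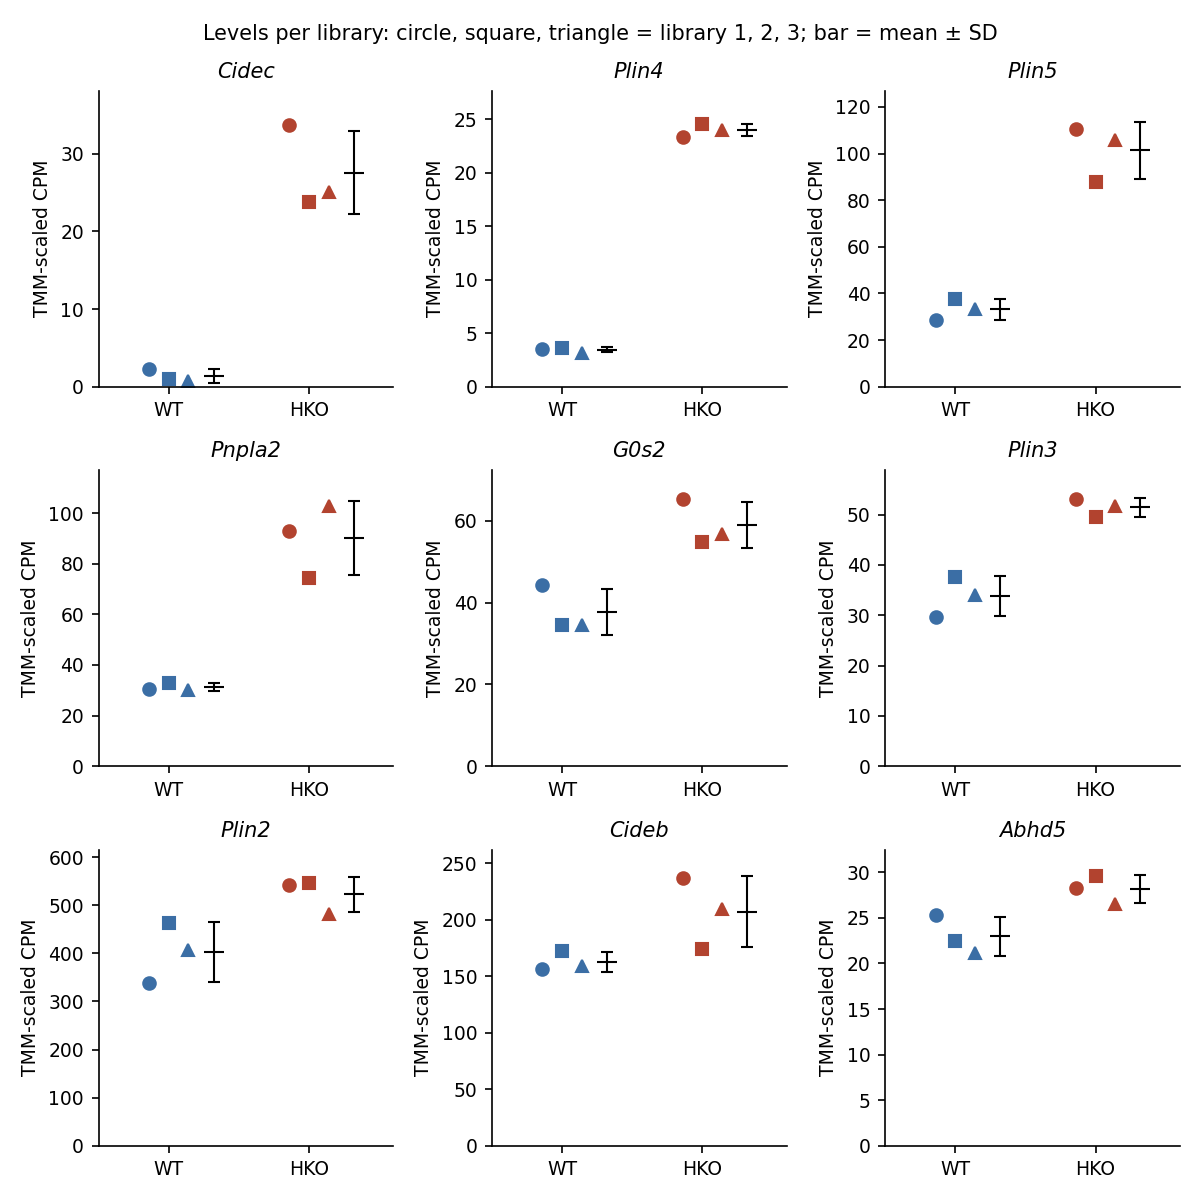
Level of each of the 9 tested genes in TMM-scaled CPM (vertical axis, from 0) in the 3 WT and 3 HKO libraries, with the mean and SD of each group as a bar. HKO points lie above WT points in every panel, with a wide gap for Cidec, Plin4, Plin5 and Pnpla2 and a narrow one for Plin2, Cideb and Abhd5.

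Cidec, which encodes the CIDE protein that drives the fusion-like growth of large droplets in fat cells and in fatty liver, differed most. Its level was 33.7, 23.8 and 25.1 CPM across HKO 1 to 3 and 2.33, 1.01 and 0.732 CPM across WT 1 to 3. The lowest HKO library was thus 10.2 times the highest WT library, and within WT library 1 lay above the other two. The means were 27.5 ± 5.35 and 1.36 ± 0.855 CPM (SD, n = 3), a ratio of 20.3, with a log2 fold change of 4.32 (SE 0.36, edgeR adjusted p = 0.000360). Only 13 of the tested genes had a larger rise. Between 12 and 42 counts per library lie behind the WT values, so the size of the fold rests on few reads: the log2 fold change was 4.95 without WT 1, and between 4.03 and 4.41 when any other library was left out.

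Cideb, the CIDE gene of normal hepatocytes, whose product serves both droplets and the loading of lipid onto very low density lipoprotein, was the most abundant of the family. It stood at 237, 174 and 210 CPM across HKO 1 to 3 and 156, 173 and 159 CPM across WT 1 to 3. HKO 2 and WT 2 nearly met, and the difference did not pass the test (log2 fold change 0.35, SE 0.13, edgeR adjusted p = 0.0819). Without HKO 2 it did (log2 fold change 0.46, adjusted p = 0.0208). Exons of Nop9 on the opposite strand cover 1136 of the 1488 exon bases of Cideb, and no strand-marking step is described. Nop9 had 263 to 385 counts per library against 2612 to 4601 for Cideb, and its log2 fold change was -0.03 (edgeR adjusted p = 0.894).

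Cidea, known from brown fat and induced in fatty liver of mice, was near the limit of detection. It had 2, 0 and 4 counts in WT 1, 2 and 3 and 0 in each HKO library. Taking 3 counts over the HKO group as the limit that a count of 0 allows, it was at least 2.21-fold lower in HKO, a bound that takes the WT counts as they are and covers counting error of the HKO group only. WT 3 holds 4 of the 6 WT counts, and the 2 counts left without it are under that limit, so that no fold can be given. With no filter on low counts the edgeR adjusted p was 0.211. The 3 CIDE genes thus stood at very different levels, and Cidec alone among them passed the test.

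The perilipin genes differed in the size of their change. Plin4, a coat protein of nascent droplets that is best known from adipocytes, stood at 23.4, 24.5 and 24.0 CPM across HKO 1 to 3 and 3.56, 3.60 and 3.17 CPM across WT 1 to 3. Replicates lay close together in both groups, and the HKO mean was 6.97 times the WT mean (log2 fold change 2.80, SE 0.12, edgeR adjusted p = 4.97e-05). Exons of Plin4 share 17 of 5777 bases with Hdgfl2 on the opposite strand, which did not pass the test (log2 fold change 0.00, adjusted p = 0.989; named Hdgfrp2 in the table). Plin5, the perilipin of oxidative tissues, which holds Abhd5 and adipose triglyceride lipase at the droplet and ties droplets to mitochondria, stood at 110, 87.6 and 106 CPM across HKO 1 to 3 and 28.8, 37.5 and 33.2 CPM across WT 1 to 3. The lowest HKO value was 2.34 times the highest WT value (log2 fold change 1.61, SE 0.14, edgeR adjusted p = 0.000371).

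Plin3, a perilipin that moves between cytosol and small droplets, rose too. It was at 53.2, 49.4 and 51.7 CPM across HKO 1 to 3 and 29.7, 37.7 and 33.9 CPM across WT 1 to 3, with means of 51.4 ± 1.89 and 33.8 ± 4.02 CPM (SD, n = 3; log2 fold change 0.61, SE 0.11, edgeR adjusted p = 0.00813). Plin2, the coat protein found on droplets of most cells and the usual marker of hepatocyte fat, was the most abundant member by CPM. Its level was 542, 547 and 482 CPM across HKO 1 to 3 and 339, 463 and 407 CPM across WT 1 to 3. HKO 3 exceeded WT 2 by a factor of only 1.04, and the difference did not pass (log2 fold change 0.38, SE 0.13, edgeR adjusted p = 0.0780). Under none of 15 alternative settings did Plin2 pass (adjusted p from 0.0538 to 0.196).

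**Figure D2:**
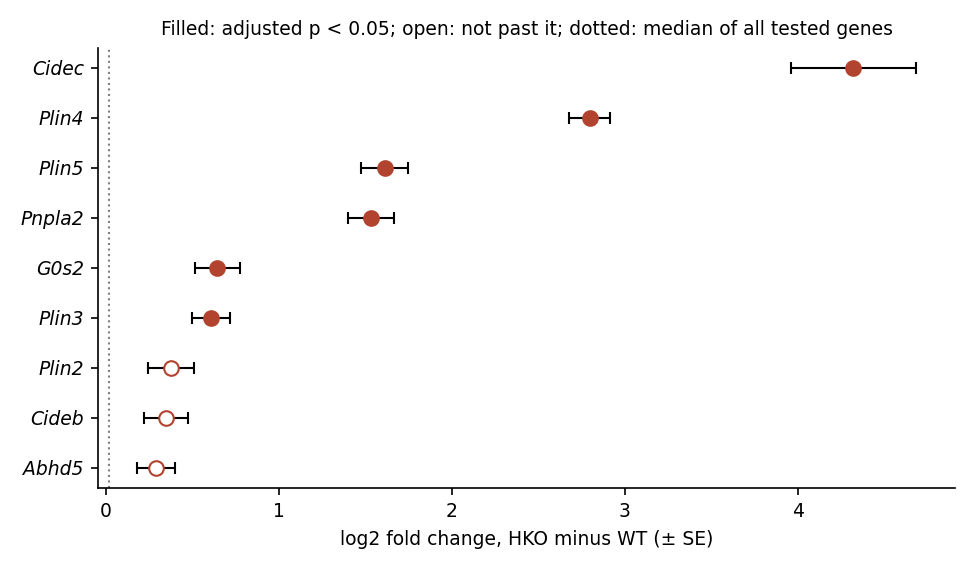
Log2 fold change of HKO minus WT (horizontal axis, with the standard error) for the 9 tested genes in order of size. Filled points passed an adjusted p of 0.05, open points did not, and the dotted line is the median of all tested genes at 0.02.

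The lipase gene and the gene of its inhibitor rose, and that of its coactivator did not pass the test. Pnpla2 stood at 93.0, 74.4 and 103 CPM across HKO 1 to 3 and 30.4, 32.9 and 30.0 CPM across WT 1 to 3, so that every HKO library was at least 2.26 times any WT library (log2 fold change 1.53, SE 0.13, edgeR adjusted p = 0.000422). G0s2, whose product binds the lipase and inhibits it, was at 65.4, 54.8 and 56.7 CPM across HKO 1 to 3 and 44.2, 34.5 and 34.4 CPM across WT 1 to 3. The groups did not overlap, with WT 1 nearest to HKO (log2 fold change 0.64, SE 0.13, edgeR adjusted p = 0.0120). The call of G0s2 was lost without WT 3 (adjusted p = 0.0608). Abhd5, the coactivator that perilipins release to the lipase on stimulation, was at 28.3, 29.6 and 26.6 CPM across HKO 1 to 3 and 25.3, 22.4 and 21.2 CPM across WT 1 to 3. HKO 3 and WT 1 were close, and Abhd5 did not pass (log2 fold change 0.29, SE 0.11, edgeR adjusted p = 0.0919). An antisense gene, A730085K08Rik, covers 950 of its 5956 exon bases and had 0 counts in each library.

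Ratios of 2 members within 1 library do not depend on how libraries are scaled. By deposited FPKM (fragments per length of the gene and depth of the library), the ratio of G0s2 to Pnpla2 was 5.64, 5.91 and 4.42 in HKO and 11.7, 8.41 and 9.20 in WT. All HKO ratios lay below all WT ratios, by 0.87 on the log2 scale between the group means. For Abhd5 to Pnpla2 the ratio was 0.503, 0.659 and 0.427 in HKO against 1.38, 1.13 and 1.17 in WT. The transcripts of the inhibitor and of the coactivator were thus both lower relative to that of the lipase in HKO. Plin5 to Pnpla2 gave 2.64, 2.62 and 2.29 in HKO and 2.11, 2.54 and 2.46 in WT, where the groups overlapped. Cidec to Cideb gave 0.0852, 0.0821 and 0.0718 in HKO and 0.00896, 0.00351 and 0.00276 in WT. The lengths implied by the deposited counts and FPKM differ from exon lengths in the GENCODE M21 annotation (for Pnpla2 6988 against 3020 bases). For Pnpla2 the implied value exceeds the gene's whole span of 5.55 kb, so it cannot be an exon length, and its origin is not known here. Using exon lengths instead shifts the size of each ratio by 1 factor and leaves the differences between groups as they are. These ratios are descriptions and were given no test.

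**Figure D3:**
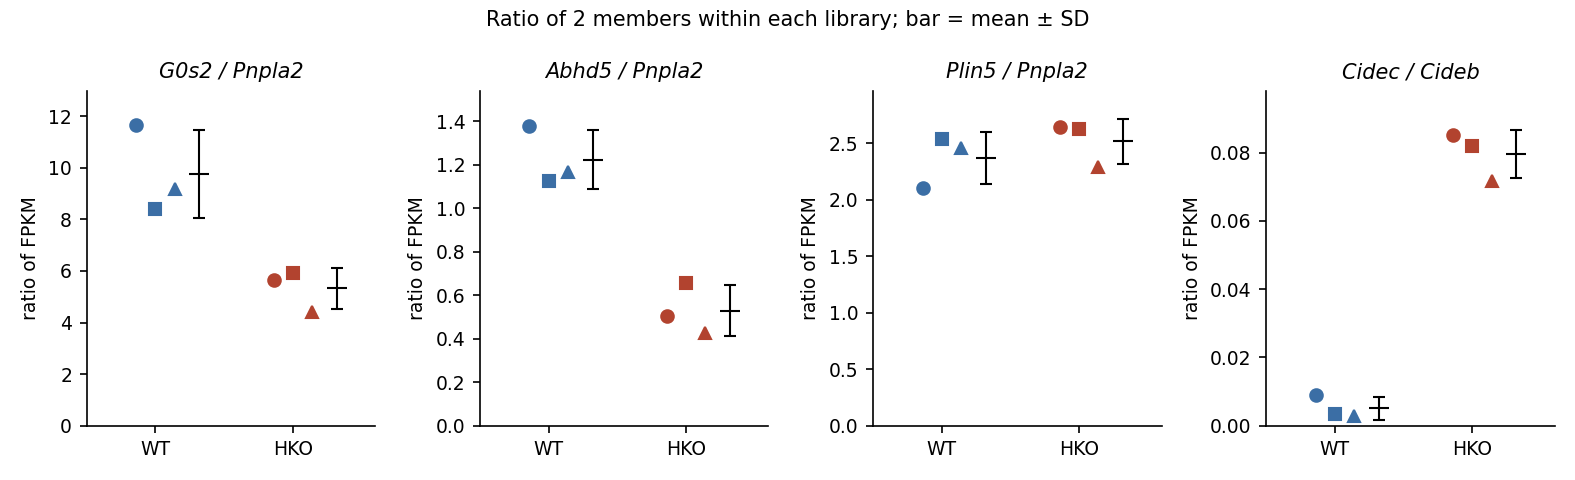
Ratio of deposited FPKM between pairs of genes in each library (vertical axes, from 0), with the mean and SD of each group as a bar. The ratios of G0s2 and Abhd5 to Pnpla2 are lower in all HKO libraries, that of Plin5 to Pnpla2 overlaps between groups, and that of Cidec to Cideb is higher in all HKO libraries.

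Levels between genes were compared per length, and their order depended in part on the lengths used. On a scale of CPM per kb of GENCODE M21 exon, Plin2 and Cideb led in HKO with 149 ± 10.3 and 139 ± 21.2, followed by G0s2 with 67.7 ± 6.47, Plin5 with 48.6 ± 5.79 and Pnpla2 with 29.8 ± 4.80 (SD, n = 3). Cidec with 14.8 ± 2.88 and Plin3 with 13.6 ± 0.499 came next, then Abhd5 with 4.72 ± 0.255 and Plin4 with 4.15 ± 0.102. Plin2 and Cideb, and Cidec and Plin3, did not differ beyond their spread. In WT, on the same scale, Plin2 with 115 ± 17.6 and Cideb with 109 ± 5.81 again led without differing beyond their spread, and G0s2, Plin5 and Pnpla2 followed with 43.3 ± 6.48, 15.9 ± 2.08 and 10.3 ± 0.522. Plin3 stood at 8.92 ± 1.06, where its libraries overlapped those of Pnpla2, and Abhd5 at 3.86 ± 0.358. The lowest places were those of Cidec with 0.732 ± 0.461 and Plin4 with 0.596 ± 0.0403, which overlapped. By deposited FPKM, which implies other lengths, the order in HKO was Cideb, Plin2, G0s2, Plin5, Plin3, Pnpla2, Cidec, Abhd5 and Plin4. In WT it was Cideb, Plin2, G0s2, Plin3, Plin5, Abhd5, Pnpla2, Cidec and Plin4. On both scales Plin2, Cideb and G0s2 held the first 3 places in both groups, while Pnpla2 stood lower by FPKM.

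The genes lie on 8 chromosomes, and 3 perilipin genes share a stretch of chromosome 17 on the minus strand (GRCm38). Plin4 (ENSMUSG00000002831, 56100591 to 56109803) and Plin5 (ENSMUSG00000011305, 56111601 to 56117596) are 1.80 kb apart, and Plin3 (ENSMUSG00000024197, 56278962 to 56290511) lies 161 kb from Plin5. Of 15 tested genes within 100 kb of any of the 3, other than the perilipins, 2 rose and none fell. Their log2 fold changes ran from -0.60 to 0.50. Over all genes tested, 12.1% were called higher and 11.2% lower. The 2 that rose were Ubxn6, a cofactor of the protein-unfolding enzyme p97 (log2 fold change 0.37), and Ticam1, an adaptor of Toll-like receptors (0.50). Ubxn6 lost its call when any 1 library was left out (edgeR adjusted p from 0.0561 to 0.130), and Ticam1 lost it without HKO 3, WT 1 or WT 3 (edgeR adjusted p from 0.0504 to 0.0692). Lrg1 and Hdgfl2, which flank the Plin4 and Plin5 pair, had log2 fold changes of -0.19 and 0.00.

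**Figure D4:**
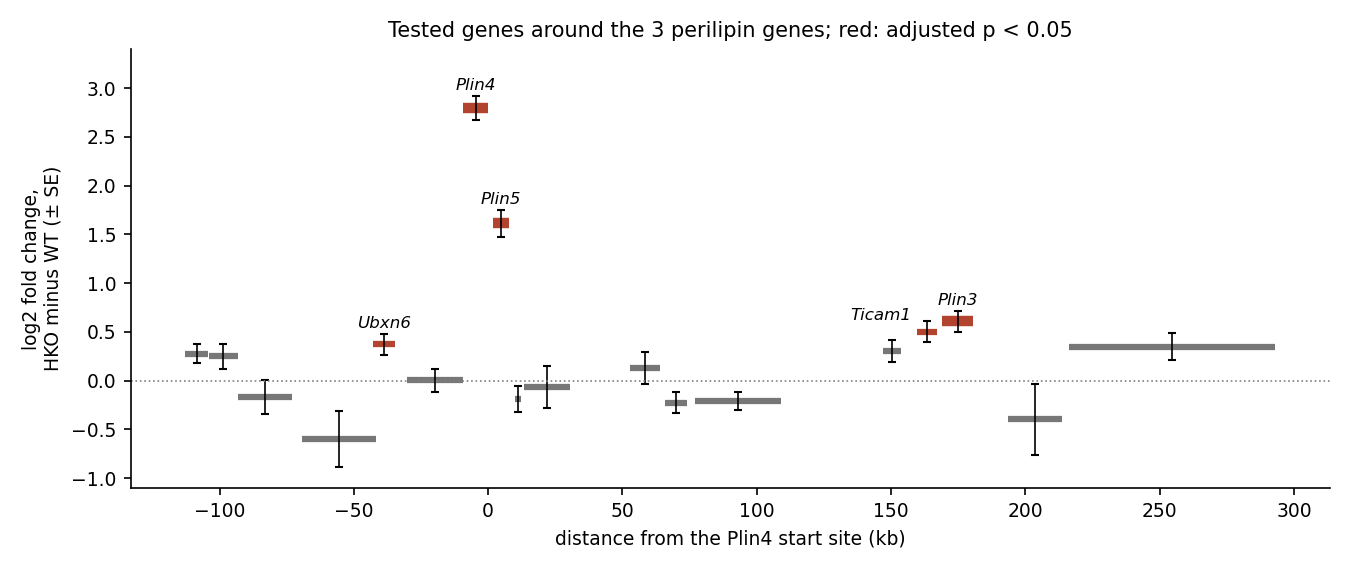
Log2 fold change of HKO minus WT (vertical axis, with the standard error) of tested genes against their distance in kb from the start site of Plin4, with each gene drawn as a bar over its span. Plin4 and Plin5 stand at 2.80 and 1.61, Plin3 at 0.61 and the 15 other genes between -0.60 and 0.50.

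Elsewhere, Cidec (ENSMUSG00000030278) lies on chromosome 6, 113424634 to 113435760, minus strand. None of its 11 tested neighbours within 100 kb rose, and Fancd2, a gene of DNA crosslink repair, fell (log2 fold change -1.34, edgeR adjusted p = 0.0335), a call that ended without each single library other than HKO 2 (adjusted p between 0.0591 and 0.104). Pnpla2 (ENSMUSG00000025509) lies on chromosome 7, 141455198 to 141460743, plus strand. Of 11 tested neighbours none rose and 2 fell: Chid1, which encodes a chitinase-like lysosomal protein, with a log2 fold change of -1.41 and Eps8l2, an actin regulator, with -0.58. G0s2 (ENSMUSG00000009633, chromosome 1, 193272161 to 193273217, minus strand) sits within the span of Lamb3, a laminin chain gene, without sharing exons. Lamb3 rose with a log2 fold change of 0.78, Hsd11b1, which regenerates active glucocorticoid in liver, with 0.85, and the unnamed gene record Gm37691 fell with -1.60. Calls of these 3 neighbours were each lost when certain libraries were left out, among them WT 3 (adjusted p of 0.137, 0.0662 and 0.153 without it). Over all members, 60 neighbours were tested, of which 7 (11.7%) were higher and 8 lower. Over all genes tested, 12.1% were higher and 11.2% lower, so the neighbours were near that share. Near Cideb (ENSMUSG00000022219, chromosome 14, 55754045 to 55758458, minus strand) 3 of 11 rose and 3 fell, led by the adenylate cyclase gene Adcy4 (1.40), the GMP reductase gene Gmpr2 (-0.69), the prenylation gene Rabggta (0.60) and the telomere gene Tinf2 (-0.54). Of these 4, Gmpr2 alone kept its call in all 6 fits that left out a library, and Adcy4 in none (adjusted p from 0.0509 to 0.132). Tubb6, a tubulin gene near Cidea (ENSMUSG00000024526), fell with -1.34. No neighbour of Plin2 (ENSMUSG00000028494, chromosome 4, 86648386 to 86670060, minus strand) or Abhd5 (ENSMUSG00000032540, chromosome 9, 122351608 to 122381524, plus strand) was called.

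Start-site sequences are shown for the genes with the largest rises, Cidec with both of its RefSeq starts, Plin4, Plin5 and Pnpla2, and for Plin2, which holds a nuclear receptor match. They are 250 bases before each RefSeq start (GRCm38.p6), 5′ to 3′ on the gene's strand, with capitals for motif matches, of which Cidec and Pnpla2 have none. Of Plin5, 30 bases are shown beside the same stretch of Plin4, from 41 to 12 bases before the start.
Cidec, first start (chr6:113435761-113436010, minus strand): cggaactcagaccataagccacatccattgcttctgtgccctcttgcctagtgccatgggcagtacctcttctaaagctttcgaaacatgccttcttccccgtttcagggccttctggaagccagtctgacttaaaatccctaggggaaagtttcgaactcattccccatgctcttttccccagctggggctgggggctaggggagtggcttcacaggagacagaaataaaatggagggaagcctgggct
Cidec, second start (chr6:113434765-113435014, minus strand): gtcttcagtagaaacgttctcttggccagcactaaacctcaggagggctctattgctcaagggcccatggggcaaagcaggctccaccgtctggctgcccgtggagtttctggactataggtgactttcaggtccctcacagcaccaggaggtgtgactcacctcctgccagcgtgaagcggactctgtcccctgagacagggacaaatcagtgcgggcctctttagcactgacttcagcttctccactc
Plin4 (chr17:56109783-56110032, minus strand): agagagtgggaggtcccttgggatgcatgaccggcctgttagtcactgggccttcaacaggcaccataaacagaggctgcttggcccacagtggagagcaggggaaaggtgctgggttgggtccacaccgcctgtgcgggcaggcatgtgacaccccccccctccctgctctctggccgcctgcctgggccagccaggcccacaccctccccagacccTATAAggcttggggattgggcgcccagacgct
Pnpla2 (chr7:141454938-141455187, plus strand): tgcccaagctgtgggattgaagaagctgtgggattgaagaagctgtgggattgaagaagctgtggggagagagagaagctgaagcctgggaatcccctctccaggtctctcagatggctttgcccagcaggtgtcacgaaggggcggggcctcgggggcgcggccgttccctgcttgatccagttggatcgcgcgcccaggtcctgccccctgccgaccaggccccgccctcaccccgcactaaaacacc
Plin2 (chr4:86670060-86670309, minus strand): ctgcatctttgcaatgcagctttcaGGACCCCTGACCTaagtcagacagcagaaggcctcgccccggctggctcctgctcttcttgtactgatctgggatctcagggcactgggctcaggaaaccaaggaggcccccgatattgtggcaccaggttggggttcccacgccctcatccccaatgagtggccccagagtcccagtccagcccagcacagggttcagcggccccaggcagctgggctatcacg
Plin4, near the start (chr17:56109794-56109823, minus strand): cccagacccTATAAggcttggggattgggc
Plin5, near the start (chr17:56117560-56117589, minus strand): ccacccagacctgcTATAAggacggagggc

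In all, 11 such windows of 9 genes were searched on both strands for 5 motifs, and the share of 32851 mouse windows of the same length with a match is given for each. Cidea was not searched. The DR1 motif of PPAR and RXR pairs is AGGTCA repeated after 1 N, here with up to 2 mismatches. It was found in Plin2 alone of the 9 genes searched, from 225 to 213 bases before the start (3.24% of all windows). TATAA was found in Plin4, Plin5 and Cideb (22.8% of all windows), and in Plin4 and Plin5 it began 32 and 27 bases before the RefSeq start. In GENCODE M21 the first exon of each starts farther upstream, by 21 and 48 bases, so the distance depends on the annotation. By that annotation the match still lies before the first exon in Plin4 but inside the first exon in Plin5. The half-site TGACG was found in G0s2 and Abhd5 (17.8%), and CACGTG (6.02%) and the SOX motif AACAAT (9.42%) in none of the 11. The motifs do not overlap in these windows. A match is a description of letters, and the absence of one says only that these letters are not in the window.

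Other genes of lipid breakdown moved in both directions. Of 21 tested genes of other lipases and lipophagy 8 (38.1%) rose, 5 fell and 8 missed the threshold (median 0.31 on the log2 scale). The shares over all genes tested were 12.1% higher and 11.2% lower. Mgll, which cleaves monoglyceride, the last step after adipose triglyceride lipase, was at 270, 235 and 269 CPM across HKO 1 to 3 and 73.3, 84.5 and 83.5 CPM across WT 1 to 3 (log2 fold change 1.68, SE 0.11, edgeR adjusted p = 0.000183). Lipg, an endothelial-type lipase, Ces1d, a hepatic triglyceride hydrolase, and Tfeb, a regulator of lysosomes, rose by 1.67, 1.64 and 1.15 on the log2 scale. Lpl, the lipase of capillary walls, fell with -1.75, but it stood at 86.4 CPM in WT 1 and at 22.9 CPM in WT 2 against 23.0 CPM in HKO 2, and its log2 fold change without WT 1 was -1.08 (adjusted p = 0.0999). The carboxylesterase genes Ces3b and Ces3a fell with -1.36 and -0.45, and Faf2, which helps to remove droplet proteins, with -0.42. Ces3a lost its call without each single library other than HKO 1 (edgeR adjusted p between 0.0597 and 0.129), and Lpl without each other than HKO 2 or WT 2 (0.0844 to 0.118).

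Among lipases and their inhibitors of the fixed list, the hormone-sensitive lipase gene Lipe had a mean of 14.1 ± 0.516 CPM over HKO and 10.9 ± 0.625 CPM over WT (SD, n = 3; log2 fold change 0.38, edgeR adjusted p = 0.0464). Its call was lost when any 1 library was left out (adjusted p from 0.0880 to 0.142). Hilpda, a second inhibitor of the lipase, stood at 4.03, 4.25 and 3.05 CPM across HKO 1 to 3 and 2.61, 1.52 and 1.83 CPM across WT 1 to 3 and was next to the threshold (log2 fold change 0.92, SE 0.28, edgeR adjusted p = 0.0502). It passed in 5 of 15 alternative settings, with the lowest adjusted p from limma on log2 FPKM (0.0280) and 0.0387 in edgeR without WT 1. Pnpla3, a relative of Pnpla2, was too low to be tested, with 2, 2 and 3 counts in HKO and 20, 12 and 7 counts in WT.

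Genes of droplet formation had a median near that of all genes, while a larger share was called higher. Of 29 tested, 7 (24.1%) rose, 4 fell and 18 missed the threshold (median 0.06 on the log2 scale). Over all genes tested, 12.1% were higher and 11.2% lower. Fitm2, which partitions triglyceride into budding droplets, rose from 27.7 ± 1.84 to 63.3 ± 5.94 CPM (SD, n = 3; log2 fold change 1.19, edgeR adjusted p = 0.000513). The acyltransferase genes Gpat3 (Agpat9 in the table) and Gpat4 rose by 1.10 and 1.07 on the log2 scale, and Hsd17b11, a droplet-bound dehydrogenase gene, by 0.93. Its relative Hsd17b13, a droplet protein abundant in fatty liver, rose with 0.55 (edgeR adjusted p = 0.0426), and that call was lost without HKO 1, HKO 3, WT 1 or WT 3 (adjusted p from 0.0965 to 0.131). Those that fell were the sterol enzyme gene Nsdhl (-2.02), Acsl3, an acyl-CoA synthetase of nascent droplets (-1.55), Pcyt1a, the rate-limiting enzyme of phosphatidylcholine synthesis that coats growing droplets (-1.12), and Arfgap1 (-0.53). Plin1, the perilipin of adipocytes, had 1 count in HKO 1 and 0 in the other libraries.

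In fatty acid uptake and handling 5 of 19 tested genes (26.3%) rose, 3 fell and 11 missed the threshold (median 0.25 on the log2 scale). The shares over all genes tested were 12.1% higher and 11.2% lower. The transport protein genes Slc27a1 and Slc27a2, the acyl-CoA synthetase gene Acsl1 and the fatty acid binding protein gene Fabp2 rose by 1.57, 1.05, 1.16 and 0.74 on the log2 scale. Dbi, an acyl-CoA binding protein, and the acyl-CoA synthetase gene Acsl5 fell with -0.75 and -0.43, and Acsl5 lost its call without each single library other than HKO 2 or WT 2 (edgeR adjusted p up to 0.0910).

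Regulators and targets of PPAR-alpha were measured beside the coat genes. Ppara itself stood at 44.0, 75.1 and 86.2 CPM across HKO 1 to 3 and 32.3, 51.3 and 44.9 CPM across WT 1 to 3, where the groups overlapped (log2 fold change 0.68, SE 0.26, edgeR adjusted p = 0.0976), and it passed in 3 of 15 alternative settings, without HKO 1 (edgeR adjusted p = 0.0287), with the replicate number as a block (edgeR adjusted p = 0.0211) and with DESeq2 (adjusted p = 0.0383). Pparg, the receptor of adipocytes that drives Cidec in fatty liver of mice, stood at 4.41, 7.39 and 4.10 CPM across HKO 1 to 3 and 8.39, 3.43 and 4.15 CPM across WT 1 to 3, with overlapping groups (log2 fold change -0.01, SE 0.38, edgeR adjusted p = 0.984). In 6 of 15 alternative settings the sign of the Pparg value turned, with no call. Of 19 tested regulators 7 (36.8%) rose, 1 fell and 11 missed the threshold (median 0.28), where 12.1% of all genes tested were higher and 11.2% lower. Lpin1 and Lpin2, phosphatidate phosphatases of which lipin 1 also acts with PPAR-alpha in the nucleus, rose by 2.34 and 1.57 on the log2 scale, and Cebpb and Esrra with 1.27 and 1.10. The glucocorticoid receptor gene Nr3c1 fell with -0.49, and this call was lost without WT 1, WT 2 or WT 3 (adjusted p from 0.0564 to 0.0825).

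Of 24 tested PPAR-alpha targets outside droplets 20 (83.3%) rose, none fell and 4 missed the threshold (median 1.14 on the log2 scale). Over all genes tested, 12.1% were higher and 11.2% lower, with a median of 0.02. Like the members and the other lists, this list was chosen with earlier results of these data known. Cyp4a14, Acot3, Fgf21 and Cyp4a10 led with log2 fold changes of 3.48, 3.31, 2.99 and 2.95. In the deposited annotation 3 of the 10 members, Plin2, Plin4 and Plin5, belong to the KEGG PPAR signaling pathway, so the coat genes and this list are not separate groups of genes by annotation. Acsl1 and Creb3l3 stand in 2 of the fixed lists.

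**Figure D5:**
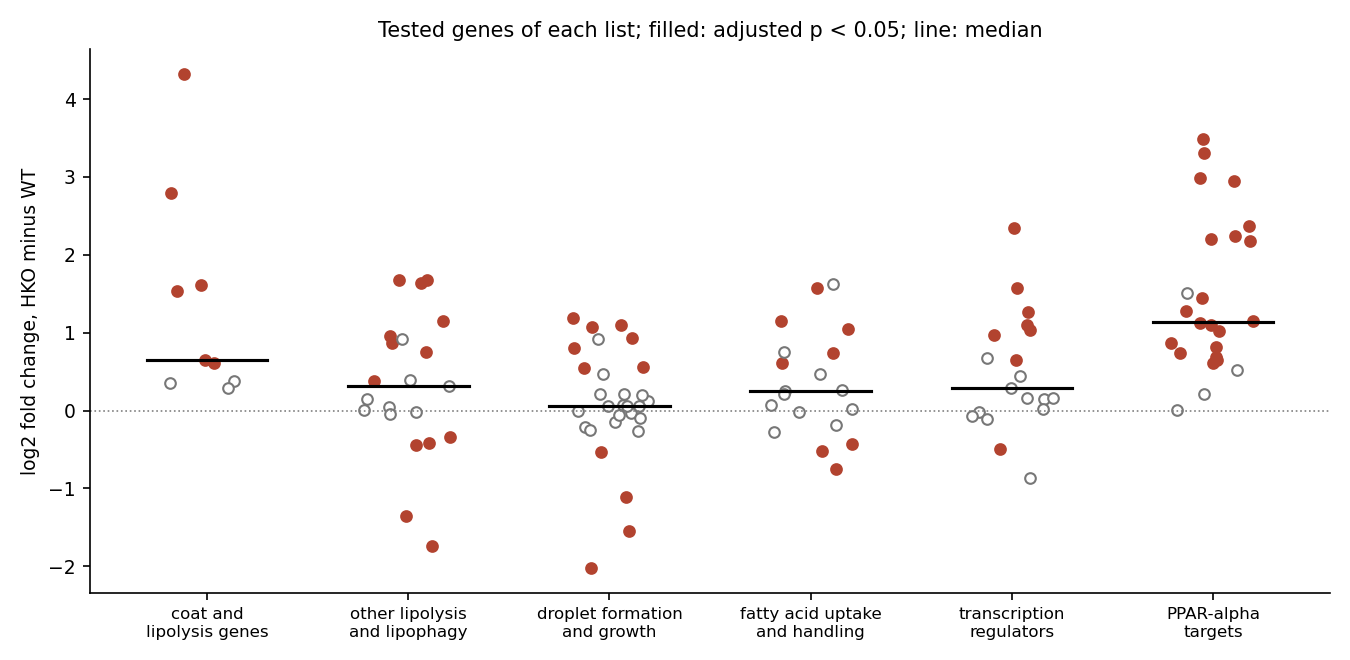
Log2 fold change of HKO minus WT (vertical axis) of the tested genes in 6 lists, with filled points past an adjusted p of 0.05, open points not past it and a line at each median. The medians are 0.64 for the 9 tested coat and lipolysis genes, 0.31, 0.06, 0.25 and 0.28 for the next lists, and 1.14 for PPAR-alpha targets.

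Several coat genes are best known from fat cells, and markers of these and other cells were measured too. Of 13 adipocyte markers 4 had no count in any library (Adipoq, Lep, Retn and Ucp1), and Plin1, Cfd and Aqp7 were near 0. The summed level of the list was 113 to 129 CPM in HKO and 54.0 to 58.5 CPM in WT, where most of the sum came from Thrsp, which liver also expresses, and Nrg4. Fabp4, which endothelial cells and macrophages share, stood at 28.4 CPM in HKO 2 and at 4.27 to 8.22 CPM elsewhere. Calls of markers stand beside shares of 12.1% higher and 11.2% lower over all genes tested. All 12 Kupffer cell and macrophage markers rose, with a summed level of 300 to 466 CPM in HKO against 201 to 213 CPM in WT. HKO 2 had the lowest macrophage sum of its group. Summed stellate markers were 195, 636 and 205 CPM across HKO 1 to 3 and 142 to 185 CPM in WT. Summed endothelial markers were 217, 651 and 254 CPM across HKO 1 to 3 and 139 to 204 CPM in WT. In both sums every HKO library lay above every WT library, with HKO 2 far above the rest. Of 12 stellate markers 5 (41.7%) rose and 1 fell, and of 12 endothelial markers 1 (8.33%) rose, below the share of all genes. The median log2 fold changes of the stellate and endothelial lists were nonetheless 1.21 and 1.16, against 0.02 over all genes. Of 4 tested cholangiocyte markers 3 fell (summed level 40.6 to 63.5 CPM in HKO and 73.5 to 183 CPM in WT). Sox9, the gene of the knockout label, is among the 3 that fell and is part of the sum. Of 8 B and plasma cell markers 3 were tested, and these rose (summed level 20.2 to 27.4 CPM in HKO and 1.11 to 2.36 CPM in WT). At such WT levels a marker can pass the filter on low counts through the HKO group alone. The number called may thus follow in part from the filter. Hepatocyte markers summed to 98660 to 104620 CPM in HKO and 108521 to 133361 CPM in WT, with 5 of 12 higher and 1 lower. The part of these cells in the coat gene differences was not tested. Without HKO 2, which had the highest stellate and endothelial sums, the log2 fold changes of Cidec, Plin4, Plin5 and Pnpla2 were 4.41, 2.78, 1.71 and 1.66. HKO 1 and HKO 3, which stayed in that fit, also had higher stellate, endothelial, macrophage and B cell sums than any WT library.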

How the data were processed

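Liver RNA of 3 HKO and 3 WT libraries was analysed from 1 table. The submitters' processing notes name HISAT2 2.0.4, StringTie 1.3.0, mm10 and GRCm38.p4, without settings. The authors deposited a whole-number count and an FPKM per gene and library, per the file headers. Counts are not normalized, and how reads matching several genes were treated is not known here.

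The members and lists were chosen with earlier results of these data known. Counts were tested in R 4.3.3 with edgeR 4.0.16 (filterByExpr, TMM, quasi-likelihood F-test on genotype, Benjamini-Hochberg over 12556 genes). Standard errors were taken as the size of the log2 fold change over the square root of F. On simulated counts for this comparison, 97.0% of genes changed by 2 on the log2 scale and 58.3% of those changed by 1 were called among 12391 genes. Of the unchanged genes 19 were called. The shares cover changed genes that passed the filter. Far fewer genes were changed than were called in the data, so the shares need not hold for the real comparison. DESeq2 1.42.0 and limma 3.58.1 (voom, and log2 of FPKM + 0.1) were alternatives. All 10 members are named, and of other lists up to 4 called genes per direction by size of change, with 8 set genes, and of neighbours within 100 kb up to 4 called genes per member. Exon overlaps come from GENCODE M21 and start-site sequences from RefSeq, both on GRCm38. RefSeq windows were matched by symbol and searched for 9 members, and Cidea was left out of this search. Gpat3 and Angptl8 were matched by gene ID and Tf by an older symbol. Some genes of the lists are counted but not reported here by name.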

Additional observations from a re-analysis of the deposited data

How the results depend on the processing

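The 6 members that rose kept their direction under all 15 alternatives and their call under all, save G0s2 without WT 3. Plin2 and Abhd5 passed under none, and Cideb without HKO 2 alone. With a library left out, 5 to 7 members were called higher and none lower, while over all genes 722 to 1589 were called higher and 682 to 1546 lower (952 and 894 without WT 2, 969 and 907 without HKO 3, fewest without WT 3). Of the other lipid genes together 37 to 47 rose and 7 to 11 fell. The 4 lower calls of droplet formation stayed at 4 under all 15 alternatives. Lower calls of other lists moved: other lipolysis genes 2 to 4 with a library left out, 3 with no scaling and with limma on log2 FPKM, fatty acid uptake 1 to 2, and 1 under both these settings, regulators 0 to 1, and 2 with no filter and with DESeq2, and neighbours 4 to 9. Higher calls among neighbours went from 7 to 0 without HKO 3 or WT 3, 1 without HKO 1, 3 without WT 2, 4 without WT 1 and 6 without HKO 2. The log2 fold change of Sox9 ranged from -1.29 to -0.83 with a library left out. Ratios on the log2 scale ranged from -0.97 to -0.74 (G0s2 to Pnpla2), -1.40 to -1.08 (Abhd5 to Pnpla2), 0.01 to 0.16 (Plin5 to Pnpla2) and 3.82 to 4.67 (Cidec to Cideb). The log2 fold change of Pparg ranged from -0.33 to 0.47 with a library left out (above 0 without HKO 1, HKO 3 or WT 1) and was 0.015 with limma-voom and 0.041 with limma on log2 FPKM. The cause was not tested.

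The labels share replicate numbers, but deviations of same-numbered libraries from their group means did not go together (r from -0.00192 to 0.0717 across genes), so the numbers were not read as a pairing. With the replicate number as a block, 6 members were higher, Ppara passed (edgeR adjusted p = 0.0211) and regulators called higher went from 7 to 8. Fewer lower calls were made in other lipolysis genes (2), fatty acid uptake (1) and other lipid genes together (8), Sox9 was at -1.02 (edgeR adjusted p = 0.0652), and Pparg was at 0.040. Lpl, Ces3a, Acsl5, Hsd17b13, Lipe, Adcy4, Gm37691, Lamb3 and Ubxn6 lost their calls with the block. No scaling moved the median of all genes by over 0.1. Depth limits Cidea, Plin1 and Pnpla3, and the WT level of Cidec.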

Other observations

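The deposited annotation offers a wider set. It places 57 genes on the lipid droplet by its GO column, 9 members among them (all but G0s2). Of the other 48 genes, 44 were tested, of which 13 were higher and 7 lower in HKO, and the median was 0.17 on the log2 scale (of all genes tested, 12.1% were higher and 11.2% lower). The largest changes, named after their values were seen, were in Ces1d and in Aifm2, a droplet- and membrane-bound reductase that protects lipids from peroxidation, which rose by 1.64 and 1.47 on the log2 scale. The falls were led by Nsdhl and Acsl3 and by Rsad2, an interferon-induced antiviral enzyme of the droplet surface, at -1.42. Of the KEGG PPAR signaling genes other than members, 61 were tested, with 26 higher and 8 lower and a median of 0.49.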
